A study of Mus musculus with 21 samples.

Results

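Cyclic nucleotide and protein kinase A (PKA) signalling genes were examined in the brain of GA-Camk2a mice, a mouse model of C9orf72 amyotrophic lateral sclerosis. The set holds 37 genes, taken from the table of 64361 genes by symbol, and all 37 were found. They are the stimulatory G protein alpha subunits, adenylyl cyclases, phosphodiesterases, PKA subunits, A-kinase anchoring proteins, cAMP-regulated phosphoproteins, the transcription factor Creb1 and Rap exchange factors. The rule that picks them is by symbol and uses no measured value, but the list was drawn up with earlier results of these data known.

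Bulk RNA from cortex and hippocampus was measured with prime-seq, which reads the 3' ends of transcripts. GA-Camk2a mice carry a GFP-tagged poly-GA transgene behind a floxed stop cassette, released by Camk2a-Cre in excitatory neurons on a C57BL/6J background, and were labelled GACamk. Animals labelled ctrl served as controls, and the labels do not say which alleles they carried. All mice were killed at 30 to 40 weeks of age. The cortex gave 5 control and 6 GA-Camk2a libraries and the hippocampus 4 control and 6 GA-Camk2a libraries, from 11 mice of which 10 gave both tissues. Replicates are separate mice. These numbers are those of the labels, and the study's figure legend gives the control numbers of the tissues the other way round.

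Total counts ranged from 1048201 to 5888102 per library with a median of 1975173. The added GFP row held 0 to 4 counts in each library, 17 in all, and therefore did not check the genotype labels. The summed level of 5 hippocampus markers was 562.6 to 775.0 CPM (counts scaled to a common library total) in hippocampus and 91.74 to 153.9 CPM in cortex, matching the tissue labels. The 21 libraries were labelled as batch 1 (12 libraries) or batch 2 (9 libraries), and batch 1 was not uniform. ENSMUSG00000138490, for instance, was at 0 to 1.5 CPM in 6 batch 1 libraries from cortex, at 0.2 to 0.4 CPM in 2 from hippocampus and at 125.7 to 249.1 CPM in the remaining 4. Those 2 differed from the 6 in Vmn1r84, at 0.2 to 0.4 CPM against 33.9 to 49.4 CPM. The library of GA-Camk2a cortex from mouse 41 was the only cortex library among the 4, and calls of members that change without it are given without it as well.

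Cyclic AMP (cAMP) is made by adenylyl cyclases under the control of G proteins and is broken down by phosphodiesterases. It acts by releasing the catalytic subunits of PKA from the regulatory subunits, which A-kinase anchoring proteins hold at defined sites in the cell, and it also activates Epac proteins, which load the small GTPase Rap with GTP. In forebrain neurons the pathway couples dopamine, adenosine and adrenergic receptors to ion channels and gene expression, is needed for lasting changes of synaptic strength, and is built from different isoforms in cortex, hippocampus and striatum.

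In cortex, 11 of 32 tested members fell in GA-Camk2a mice and 0 rose, and in hippocampus 5 of 35 fell and 0 rose (edgeR quasi-likelihood test with Benjamini-Hochberg adjustment over all genes tested, threshold 0.05). Among all genes tested 6.17% fell and 6.35% rose in cortex, and 5.97% fell and 4.97% rose in hippocampus. Adcy1, Akap5 and Rapgef4 fell in both tissues, the cortex call of Akap5 being lost with DESeq2 (adjusted p = 0.2192). Gnal, Adcy2, Pde1b, Prkar2b, Akap6, Akap11, Arpp19 and Arpp21 passed the test only in cortex, and Adcy9 and Rapgef2 only in hippocampus. Of these, the difference between the tissues itself passed its test for Arpp19 and Arpp21, and that for Arpp21 did not pass with the mouse as a replicate block (adjusted p = 0.08184). The count for both tissues, 3, stands beside 2.52% of all genes tested in both.

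The median log2 fold change of the members was -0.26 in cortex, where that of all genes was -0.005, and 0.01 in hippocampus, where that of all genes was 0.02. In cortex 27 of 32 members had a negative fold change, in hippocampus 17 of 35. At an unadjusted p under 0.05, 1 member was higher in GA-Camk2a cortex (Pde8a) and 15 were lower. In GA-Camk2a hippocampus 2 were higher (Creb1 and Pde1c) and 9 were lower. Such a p, in either direction, was found for 3388 of all 13058 genes tested in cortex and 3682 of 14884 in hippocampus. DESeq2 with batch as a term called 0 members higher in either tissue, 9 lower in cortex, where Adcy2 and Akap5 were not called, and 6 lower in hippocampus, where Pde1a was added. Of all genes tested, it called 633 higher and 585 lower of 13058 in cortex. In hippocampus it called 652 higher and 815 lower of 14884. Adcy3, Adcy6, Adcy7, Pde2a and Pde3b had too few counts to be tested in cortex, and Adcy3 and Pde2a in hippocampus.

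**Figure D1:**
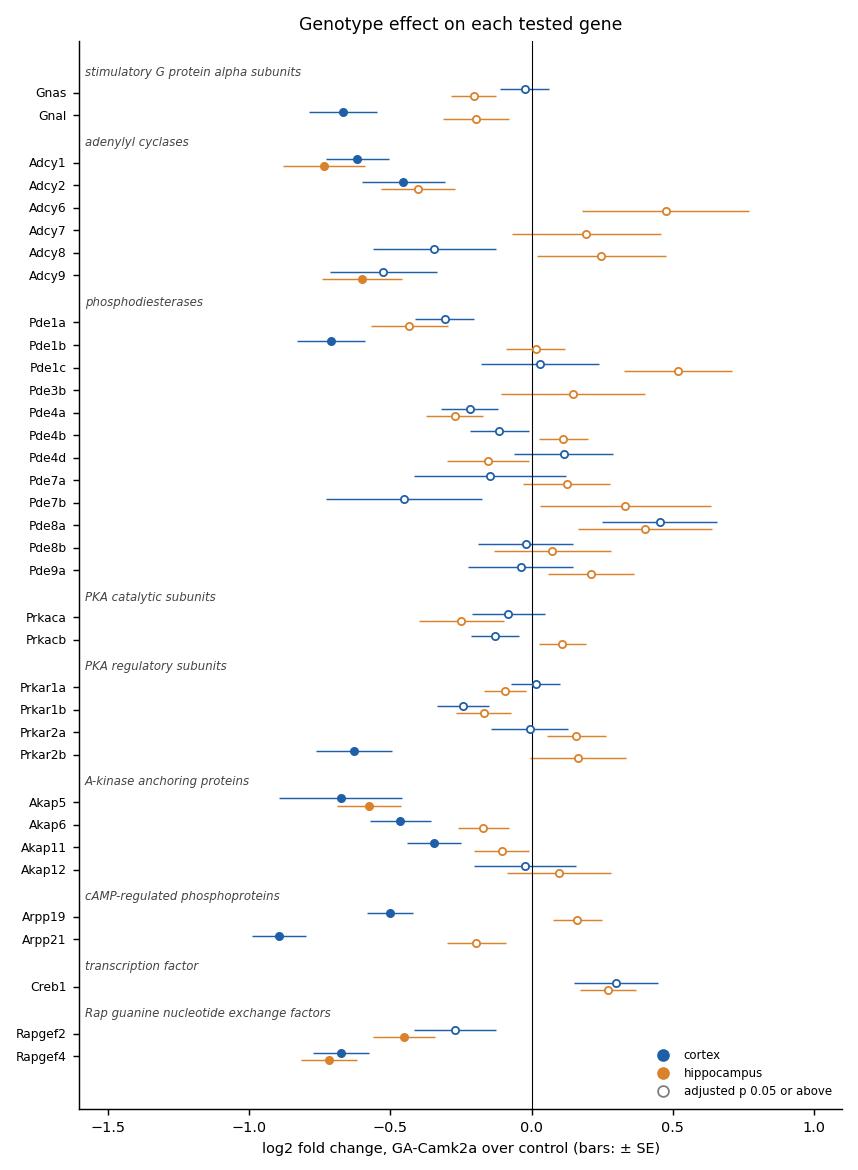
Log2 fold change of GA-Camk2a over control for each tested member, with bars of ± SE, cortex in blue and hippocampus in orange, grouped by role. Filled points passed an adjusted p of 0.05: the 11 cortex and 5 hippocampus points that did so all lie left of 0.

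Bulk levels of a gene can fall because fewer cells of a type are present or because each cell holds less of its RNA, and these cannot be told apart here. Marker lists of other cell types moved with the genotype. The summed level of 8 excitatory neuron markers was 1921 to 2428 CPM in control cortex and 1247 to 1695 CPM in GA-Camk2a cortex, and 2096 to 2651 CPM against 1114 to 1513 CPM in hippocampus. In each tissue 5 of the 8 fell. The summed level of 11 striatum markers was 1172 to 1763 CPM in control cortex and 355.4 to 757.6 CPM in GA-Camk2a cortex, and all 11 fell, by 0.77 to 1.95 on the log2 scale. In hippocampus it was 316.0 to 360.2 CPM in controls and 300.2 to 405.8 CPM in GA-Camk2a mice, and 1 of 8 tested fell. This list includes the cAMP pathway genes Adcy5, Pde10a, Gng7, Ppp1r1b, Drd1, Drd2 and Adora2a. Striatal RNA in the cortex samples and the genotype cannot be told apart, because the groups do not overlap in the summed level.

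The 6 astrocyte markers summed to 1485 to 2228 CPM in control cortex and 2192 to 3551 CPM in GA-Camk2a cortex, and to 1967 to 2308 CPM against 3325 to 4730 CPM in hippocampus. The 7 microglia markers summed to 123.5 to 140.2 CPM against 164.4 to 229.5 CPM in cortex, and to 136.4 to 154.9 CPM against 175.0 to 256.2 CPM in hippocampus. The inhibitory neuron list was at 985.5 to 1058 CPM in control cortex and 1095 to 1473 CPM in GA-Camk2a cortex, and overlapped between genotypes in hippocampus. Oligodendrocyte and oligodendrocyte precursor lists overlapped between genotypes in both tissues, as did endothelium. No marker of these lists was below 1 CPM in every library of a group. The part of cell composition in the results for the members was not tested.

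**Figure D2:**
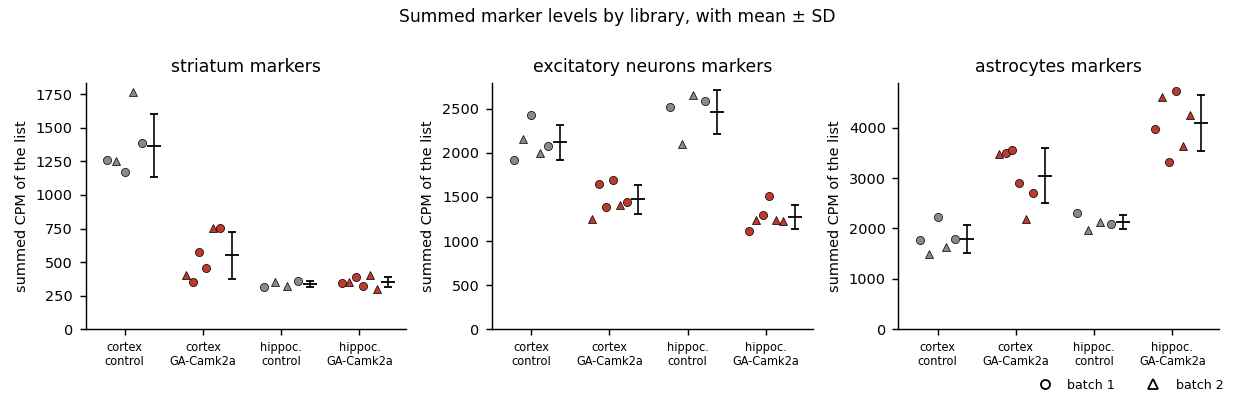
Summed CPM of the striatum, excitatory neuron and astrocyte marker lists in each library (points, shape by batch) with mean ± SD per group. The striatum sum of GA-Camk2a cortex lies below that of every control cortex, and the hippocampus groups lie at 300.2 to 405.8 CPM.

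Promoters are shown for 2 members that fell in both tissues, Adcy1 and Rapgef4, and for Prkar1a, which passed no test here. They are the 250 bases before the RefSeq start on build GRCm38.p6, plus strand, with TGACG on either strand in capitals, the core of the cAMP response element TGACGTCA. The counts were made on another build, so these positions are not those of the count table.
Adcy1, chr11:7063183-7063432: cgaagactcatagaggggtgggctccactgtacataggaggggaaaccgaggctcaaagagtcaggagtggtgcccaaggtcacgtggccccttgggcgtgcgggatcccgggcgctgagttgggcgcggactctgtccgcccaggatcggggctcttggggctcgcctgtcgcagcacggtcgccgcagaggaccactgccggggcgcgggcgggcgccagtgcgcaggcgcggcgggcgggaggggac
Rapgef4, chr2:71980965-71981214: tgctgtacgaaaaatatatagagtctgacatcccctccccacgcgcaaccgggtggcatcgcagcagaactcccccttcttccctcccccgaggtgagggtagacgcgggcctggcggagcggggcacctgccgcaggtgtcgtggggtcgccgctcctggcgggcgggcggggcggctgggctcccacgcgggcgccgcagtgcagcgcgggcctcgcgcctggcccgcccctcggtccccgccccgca
Prkar1a, chr11:109650699-109650948: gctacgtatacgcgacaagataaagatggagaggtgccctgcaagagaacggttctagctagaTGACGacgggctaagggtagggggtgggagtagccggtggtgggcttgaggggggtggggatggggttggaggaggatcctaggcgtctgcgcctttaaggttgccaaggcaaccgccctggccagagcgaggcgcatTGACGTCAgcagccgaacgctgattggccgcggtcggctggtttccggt
The full element, which contains the core on both strands, was found in the Prkar1a window and in neither of the others. Prkar1a was the only member gene with it, and the start printed for each gene was the one with the most full elements. This difference was therefore set by the choice of windows and is not a result. RefSeq promoters of 300 bases (250 before and 50 after the start) were matched for 30 of the 37 members, with 80 starts. TGACG on either strand was in 22 of the 80 (27.5%) and in 20.8% of the 32851 promoters of that length. Counted by gene, 16 of the 30 members (53.3%) and 23% of the 27025 genes in the table had it at 1 start or more, and the members' 80 starts on 30 genes are more per gene than the table's 32851 on 27025. TGACGTCA was in 2 (2.5%), both of them starts of Prkar1a with overlapping windows, and in 1.79% of all. These are matches of letters only.

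Gnal and Gnas encode the alpha subunits that stimulate adenylyl cyclases, with Gnal the form used by dopamine and adenosine receptors in the striatum. In control cortex Gnal stood at 72.51, 71.75, 82.81, 94.17 and 69.27 CPM in mice 11, 20, 31, 37 and 38, and in GA-Camk2a cortex at 37.15 to 57.71 CPM with a median of 47.49. No GA-Camk2a library reached the lowest control. In cortex 6 members were without overlap in this direction and 0 in the other, where 2.67% and 3.5% of all genes tested were. The log2 fold change was -0.67 ± 0.12 (SE, adjusted p = 0.0006314), and it was -0.66 in batch 1 and -0.69 in batch 2. In hippocampus Gnal was at 50.99, 52.65, 53.56 and 57.45 CPM in controls and at 36.51 to 64.71 CPM in GA-Camk2a mice, with a log2 fold change of -0.20 ± 0.12 (adjusted p = 0.3264). The difference between the effects in the tissues was 0.46 ± 0.17 on the log2 scale (adjusted p = 0.3081). Gnas, the ubiquitous form, averaged 1332 ± 164 CPM (SD, n = 5) in control cortex and 1286 ± 139 CPM (SD, n = 6) in GA-Camk2a cortex. Its log2 fold change was -0.02 ± 0.09 in cortex and -0.21 ± 0.08 in hippocampus (adjusted p = 0.116). The Gnas locus holds overlapping transcripts, which the counts do not separate.

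Of 7 adenylyl cyclases, 2 of 4 tested fell in cortex and 2 of 6 in hippocampus. Adcy1 encodes a calmodulin-stimulated cyclase of excitatory neurons. It was at 111.6, 106.3, 176.6, 93.66 and 116.4 CPM in control cortex and at 72.81 to 87.91 CPM, median 78.32, in GA-Camk2a cortex. The groups did not overlap, and the control of mouse 31 stood above the others. Its log2 fold change was -0.62 ± 0.11 (adjusted p = 0.0006235), -0.71 in batch 1 and -0.43 in batch 2. In hippocampus Adcy1 was at 223.1, 179.0, 218.2 and 200.2 CPM in controls and at 89.00 to 182.8 CPM, median 126.1, in GA-Camk2a mice. There the highest GA-Camk2a library lay above the lowest control, and the log2 fold change was -0.73 ± 0.15 (adjusted p = 0.003961), with -0.94 in batch 1 and -0.52 in batch 2, neither of which passed the test alone. The effects differed by -0.14 ± 0.20 between the tissues (adjusted p = 0.8845).

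Adcy2, a cyclase stimulated by G protein beta-gamma subunits, was at 36.25, 33.61, 56.43, 30.38 and 32.14 CPM in control cortex and at 23.79 to 32.48 CPM, median 28.06, in GA-Camk2a cortex. The groups overlapped, and the control of mouse 31 was again the highest. The log2 fold change was -0.45 ± 0.15 (adjusted p = 0.04313), -0.52 in batch 1 and -0.30 in batch 2, and the call was lost in 10 of 11 fits that left out 1 library. Without the control of mouse 31 the log2 fold change was -0.26 (adjusted p = 0.2776), and without GA-Camk2a mouse 41 it was -0.39 (adjusted p = 0.1055). The call was also lost with DESeq2 (adjusted p = 0.09987), without a batch term (0.0745) and with upper quartile normalization (0.05613). In hippocampus the log2 fold change of Adcy2 was -0.40 ± 0.13 (adjusted p = 0.06298). Adcy9, a widely expressed cyclase, was at 31.83, 27.85, 29.06 and 27.36 CPM in control hippocampus and at 15.05 to 27.92 CPM, median 19.32, in GA-Camk2a hippocampus. Its highest GA-Camk2a library, 27.92 CPM, lay just above 2 of the 4 controls. For Adcy9 the log2 fold change was -0.60 ± 0.14 (adjusted p = 0.01208), -0.66 in batch 1 and -0.56 in batch 2. Neither batch passed alone (adjusted p = 0.196 and 0.1858), and the call was lost with thinned counts (0.1298). In cortex it was -0.52 ± 0.19 (adjusted p = 0.0765).

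Adcy8, like Adcy1 a cyclase stimulated by calmodulin, had log2 fold changes of -0.34 ± 0.22 in cortex and 0.25 ± 0.23 in hippocampus, both short of the threshold. Adcy6 was at 1.817 to 7.799 CPM over all libraries and Adcy3 at 0 to 3.497 CPM. In hippocampus the log2 fold change of Adcy6 was 0.47 ± 0.30 (adjusted p = 0.3485). Adcy7 followed the batch in both tissues. It was at 0 to 4.558 CPM in the 7 batch 1 cortex libraries and at 11.68 to 16.35 CPM in the 4 of batch 2, and at 2.923 to 5.672 CPM and 5.877 to 13.38 CPM in hippocampus. The batch term of its hippocampus fit was 1.31 ± 0.26 on the log2 scale (adjusted p = 0.01373), a term that passed for 1.6% of the genes tested there. Its genotype effect in hippocampus was 0.19 ± 0.26 (adjusted p = 0.7104).

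**Figure D3:**
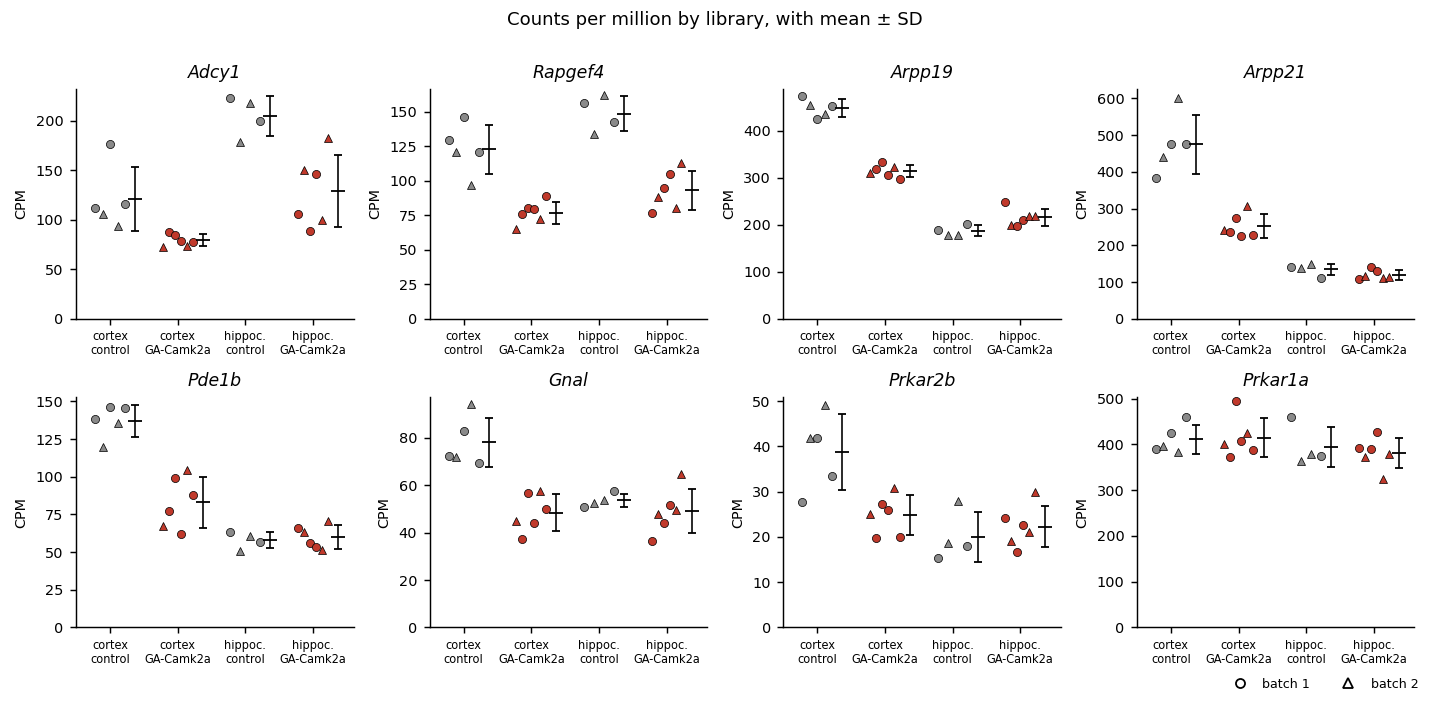
CPM in each library (points, circles for batch 1 and triangles for batch 2) with mean ± SD for 8 members in the 4 groups, on axes that start at 0. Adcy1, Rapgef4, Arpp19, Arpp21, Pde1b and Gnal do not overlap between genotypes in cortex, and Prkar1a lies between 325.0 and 494.3 CPM throughout.

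Of 13 phosphodiesterases, 1 of 11 tested fell in cortex. In hippocampus 0 of 12 passed with edgeR and 1 with DESeq2 (Pde1a). An unadjusted p under 0.05 was found there for 3 of 12, and for 3682 of all 14884 genes tested. Pde1b encodes a calmodulin-dependent enzyme that degrades cAMP and cGMP and is abundant in the striatum. It was at 138.3, 119.9, 146.6, 135.7 and 145.5 CPM in control cortex and at 62.36 to 104.3 CPM, median 82.89, in GA-Camk2a cortex. The groups did not overlap, and the log2 fold change was -0.71 ± 0.12 (adjusted p = 0.0003254), -0.79 in batch 1 and -0.55 in batch 2. In hippocampus Pde1b was at 63.66, 50.95, 60.40 and 56.54 CPM in controls and at 51.28 to 70.72 CPM in GA-Camk2a mice, with a log2 fold change of 0.01 ± 0.11. The difference between the tissues was 0.71 ± 0.17 (adjusted p = 0.05456), with an adjusted p from 0.005513 to 0.2021 over the alternatives.

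Its relative Pde1a, also calmodulin-dependent, had log2 fold changes of -0.31 ± 0.11 in cortex (adjusted p = 0.058) and -0.43 ± 0.14 in hippocampus (adjusted p = 0.05679). Pde1c, the third gene of that family, was at 0.03 ± 0.21 in cortex and 0.52 ± 0.19 in hippocampus (adjusted p = 0.09863). The cAMP-specific Pde4 enzymes gave values close to 0 for Pde4b (-0.11 ± 0.10 and 0.11 ± 0.09 in cortex and hippocampus) and Pde4d (0.11 ± 0.18 and -0.15 ± 0.14), and lower values for Pde4a (-0.22 ± 0.10 and -0.27 ± 0.10). No Pde4 gene passed the threshold in either tissue.

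Among the other cAMP-specific phosphodiesterases, Pde8a had log2 fold changes of 0.45 ± 0.21 in cortex (adjusted p = 0.1615) and 0.40 ± 0.24 in hippocampus, and Pde8b of -0.02 ± 0.17 and 0.07 ± 0.21. Pde7a gave -0.15 ± 0.27 and 0.12 ± 0.15, and Pde7b -0.45 ± 0.28 and 0.33 ± 0.30. Pde7b was at 2.836 to 11.69 CPM over all libraries, a level that gives wide errors. Pde9a, which is specific for cGMP, gave -0.04 ± 0.19 and 0.21 ± 0.15. Pde2a, stimulated by cGMP, stayed at 0.8988 to 6.078 CPM, and Pde3b, inhibited by cGMP, had a log2 fold change of 0.15 ± 0.26 in hippocampus.

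Of the genes of the kinase itself, 1 regulatory subunit passed the test, in cortex. Prkar2b, the type II beta subunit that anchors PKA in neurons, was at 27.67, 41.78, 41.77, 49.11 and 33.52 CPM in control cortex and at 19.81 to 30.89 CPM, median 25.58, in GA-Camk2a cortex. The control of mouse 11 lay within the GA-Camk2a range and the other controls above it. Prkar2b had a log2 fold change of -0.63 ± 0.13 (adjusted p = 0.002892), -0.60 in batch 1 and -0.69 in batch 2, neither of which passed the test alone. In hippocampus Prkar2b was at 15.26 to 27.92 CPM in controls and at 16.72 to 30.02 CPM in GA-Camk2a mice, with a log2 fold change of 0.16 ± 0.17. The difference between the tissues was 0.78 ± 0.21 (adjusted p = 0.1084 with edgeR and 0.03665 with DESeq2).

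Prkar1a, the ubiquitous type I subunit, averaged 411 ± 31.8 CPM (SD, n = 5) in control cortex and 415 ± 42.7 CPM (SD, n = 6) in GA-Camk2a cortex, and 395 ± 43.9 CPM (SD, n = 4) and 381 ± 33.2 CPM (SD, n = 6) in hippocampus. Its log2 fold changes were 0.01 ± 0.09 and -0.09 ± 0.07. Prkar1b, the neuronal type I subunit, gave -0.24 ± 0.09 in cortex (adjusted p = 0.08709) and -0.17 ± 0.10 in hippocampus, and Prkar2a -0.01 ± 0.14 and 0.16 ± 0.10. The catalytic subunits Prkaca (-0.08 ± 0.13 and -0.25 ± 0.15) and Prkacb (-0.13 ± 0.09 and 0.11 ± 0.08) did not pass the threshold in cortex or hippocampus.

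Of the 4 A-kinase anchoring proteins, 3 fell in cortex and 1 in hippocampus. Akap5 encodes a scaffold of the postsynaptic density that binds PKA, calcineurin and protein kinase C. In hippocampus it was at 325.7, 340.9, 373.8 and 401.0 CPM in controls and at 205.2 to 320.2 CPM, median 243.4, in GA-Camk2a mice. The groups did not overlap, as for 4.02% of the genes tested there, and the log2 fold change was -0.57 ± 0.11 (adjusted p = 0.003904), with -0.60 in batch 1, which did not pass alone (adjusted p = 0.2424), and -0.56 in batch 2.

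In cortex the level of Akap5 followed the batch. Controls were at 5443, 4139 and 5016 CPM in batch 1 and at 783.8 and 735.1 CPM in batch 2. GA-Camk2a libraries were at 3840, 2709, 4532 and 1108 CPM in batch 1 and at 361.3 and 586.4 CPM in batch 2. The batch term of the fit was -2.62 ± 0.26 on the log2 scale (adjusted p = 2.778e-07), a term that passed for 2.54% of the genes tested, and in hippocampus it was 0.01 ± 0.11. The 1108 CPM came from mouse 41. With batch in the fit, the genotype effect in cortex was -0.68 ± 0.22 (adjusted p = 0.04433), with -0.68 in batch 1 and -0.67 in batch 2. Neither batch alone passed the test, and without the library of mouse 41 the effect was -0.50 (adjusted p = 0.01839). Without a batch term it was -0.56 (adjusted p = 0.615). DESeq2 with the batch term gave -0.68 (adjusted p = 0.2192), upper quartile normalization an adjusted p of 0.05426, and the call was lost in 7 of 11 fits that left out 1 library.

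**Figure D4:**
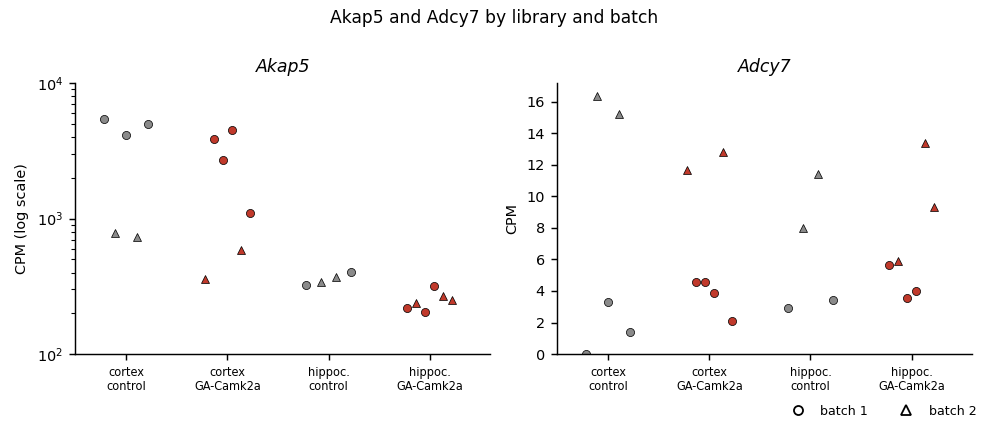
CPM of Akap5 (log axis) and Adcy7 (linear axis) in each library of the 4 groups, circles for batch 1 and triangles for batch 2. Cortex Akap5 lies at 1108 to 5443 CPM in batch 1 and at 361.3 to 783.8 CPM in batch 2, and cortex Adcy7 at 0 to 4.558 CPM and 11.68 to 16.35 CPM.

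Akap6, which holds PKA at the nuclear envelope, was at 84.91, 78.11, 110.7, 72.91 and 74.25 CPM in control cortex and at 53.03 to 73.44 CPM, median 60.59, in GA-Camk2a cortex. A single GA-Camk2a library exceeded the lowest control. The log2 fold change was -0.47 ± 0.11 (adjusted p = 0.005898), -0.46 in batch 1 and -0.48 in batch 2, and neither batch passed alone. In hippocampus it was -0.17 ± 0.09 (adjusted p = 0.2574). Akap11, which binds type I PKA and glycogen synthase kinase 3, was at 110.7, 94.46, 133.7, 107.3 and 119.4 CPM in control cortex and at 78.69 to 103.8 CPM, median 87.46, in GA-Camk2a cortex. The groups overlapped, and the log2 fold change was -0.35 ± 0.10 (adjusted p = 0.01949), -0.41 in batch 1 and -0.23 in batch 2, a call lost in 4 of 11 fits that left out 1 library, in either batch alone (adjusted p = 0.05539 and 0.6441), with no filter on low counts (0.06136) and with thinned counts (0.1612). In hippocampus it was -0.11 ± 0.10. Akap12, a scaffold of the cell cortex, gave -0.02 ± 0.18 and 0.10 ± 0.18 in cortex and hippocampus.

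Both cAMP-regulated phosphoproteins fell in cortex. Arpp21 encodes a PKA substrate of striatal and cortical neurons. It was at 383.5, 441.4, 474.9, 602.0 and 475.2 CPM in control cortex and at 224.8 to 307.2 CPM, median 237.9, in GA-Camk2a cortex. Every GA-Camk2a library lay below every control, and the log2 fold change was -0.89 ± 0.10 (adjusted p = 1.545e-06). It was -0.88 in batch 1 and -0.93 in batch 2, and Arpp21 alone of the 11 passed the test in batch 1 and in batch 2, and in all other alternatives run. In hippocampus Arpp21 was at 139.7, 137.6, 148.1 and 111.5 CPM in controls and at 107.4 to 141.6 CPM, median 115.5, in GA-Camk2a mice, which overlap, with a log2 fold change of -0.20 ± 0.10 (adjusted p = 0.2606).

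Arpp19 encodes an inhibitor of protein phosphatase 2A that PKA also phosphorylates. It was at 475.1, 454.1, 425.4, 435.4 and 452.4 CPM in control cortex and at 298.1 to 333.3 CPM, median 315.0, in GA-Camk2a cortex, with no overlap. Arpp19 had a log2 fold change of -0.50 ± 0.08 (adjusted p = 0.0002057), -0.52 in batch 1 and -0.49 in batch 2. In hippocampus Arpp19 was at 189.7, 179.2, 177.8 and 202.7 CPM in controls and at 197.4 to 248.1 CPM, median 214.1, in GA-Camk2a mice. The groups overlapped there and the log2 fold change was 0.16 ± 0.09 (adjusted p = 0.2705). Arpp19 has near-identical copies in the genome, and how the authors counted reads shared with them is not given in the sources used here.

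The difference of the genotype effects, hippocampus minus cortex, was 0.65 ± 0.12 for Arpp19 (adjusted p = 0.007986) and 0.70 ± 0.16 for Arpp21 (adjusted p = 0.03668) on the log2 scale. Of 35 members tested, these 2 passed with a positive difference and 0 with a negative, where 0.149% and 0.251% of all genes did. No member had a negative difference at an unadjusted p under 0.05 or by DESeq2, which called 4 positive, adding Pde1b and Prkar2b. Among all 14751 genes tested, DESeq2 called 61 positive and 66 negative. With the mouse as a replicate block in the pairing of tissues, the difference was 0.66 for both genes and its adjusted p 0.01794 for Arpp19 and 0.08184 for Arpp21. The call for Arpp21 was also lost without the batch term (adjusted p = 0.07508) and in 8 of 21 fits that left out 1 library, the highest adjusted p being 0.1106 and that without the cortex of mouse 41 being 0.05685. That for Arpp19 was lost when counts were thinned to the smallest library (adjusted p = 0.05935). In the same comparison all 11 striatum markers had a positive difference, 0.31 to 2.19, and 6 of them passed the threshold, at 1.08 to 2.19.

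Rapgef4, also called Epac2, is the neuronal cAMP-activated exchange factor for Rap. It was at 129.7, 120.8, 146.2, 97.21 and 120.5 CPM in control cortex and at 64.72 to 88.53 CPM, median 77.39, in GA-Camk2a cortex. In hippocampus it was at 156.2, 133.5, 161.8 and 142.5 CPM in controls and at 76.57 to 112.7 CPM, median 91.56, in GA-Camk2a mice. The groups overlapped in neither tissue. The log2 fold change was -0.68 ± 0.10 in cortex (adjusted p = 5.981e-05) and -0.72 ± 0.10 in hippocampus (adjusted p = 0.0003068). For cortex the values within batch 1 and batch 2 were -0.69 and -0.65, for hippocampus -0.74 and -0.71. Of these, batch 2 in cortex (adjusted p = 0.08055) and batch 1 in hippocampus (0.06497) did not pass alone. The effects differed by -0.07 ± 0.14 between the tissues (adjusted p = 0.9279).

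Rapgef2, an exchange factor for Rap acting in neurons, was at 75.67, 61.14, 85.47 and 73.86 CPM in control hippocampus and at 44.59 to 62.42 CPM, median 56.47, in GA-Camk2a hippocampus. The lowest control lay within the GA-Camk2a range. Its log2 fold change was -0.45 ± 0.11 (adjusted p = 0.01419), -0.40 in batch 1 and -0.52 in batch 2, neither of which passed alone. In cortex it was -0.27 ± 0.15 (adjusted p = 0.2436). Creb1, the transcription factor that PKA phosphorylates, was at 35.40, 36.00, 37.04 and 37.39 CPM in control hippocampus and at 38.46 to 50.70 CPM, median 46.38, in GA-Camk2a hippocampus. It was the only tested member with every GA-Camk2a library above every control, which 5.6% of the genes tested there had, and the log2 fold change was 0.27 ± 0.10 (adjusted p = 0.09791). In cortex it was 0.30 ± 0.15 (adjusted p = 0.2085), with overlapping groups.

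The regional pattern of the members was compared in control mice. Of 36 members tested, 4 were higher in hippocampus than in cortex (Adcy1, Adcy9, Akap11 and Rapgef2) and 10 were lower, where 8.69% and 7.6% of all genes were. The lower ones were Gnal, Pde1b, Pde4b, Pde7b, Prkacb, Prkar1b, Prkar2b, Akap5, Arpp19 and Arpp21. Arpp21 was lower by 1.90 ± 0.11 on the log2 scale (adjusted p = 7.621e-09), and Arpp19 and Pde1b had log2 differences of -1.30 ± 0.10 each (adjusted p = 1.157e-07). Prkar2b differed by -1.11 ± 0.15 and Gnal by -0.60 ± 0.11. In the other direction, Adcy9 differed by 0.79 ± 0.17 and Adcy1 by 0.74 ± 0.12. In batch 1 the control cortex libraries and the control hippocampus libraries were of different kinds. With library kinds or in batch 2 alone Akap11, Rapgef2, Pde4b and Pde7b were not called (adjusted p from 0.05176 to 0.3239), which leaves 2 higher and 8 lower. Both settings take the tissue contrast from the batch 2 control libraries, so they are not separate checks. Their log2 differences were 0.393 and 0.397 for Akap11 (main fit 0.339) and 0.648 and 0.631 for Rapgef2 (0.434). For Pde4b they were -0.466 and -0.458 (-0.422), and for Pde7b -0.775 and -0.768 (-1.068). Leaving out 1 library also ended the calls of Akap11 and Rapgef2 in 3 of 9 fits each. The value for Akap5 was -2.57 ± 0.39 with batch in the fit but -1.15 in batch 2 alone, both past the threshold. Of the 11 members that fell in GA-Camk2a cortex, 6 were lower in control hippocampus than in control cortex, 2 were higher and 3 had no regional call. Both comparisons use the control cortex libraries, and the same count was not made over all genes that fell in cortex. Whether this split is particular to the members was therefore not tested. All 11 striatum markers were likewise lower in control hippocampus than in control cortex.

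Beyond the members, 119 other genes of the pathway were listed. In cortex 24 of 89 tested fell and 3 rose, with a median log2 fold change of -0.24, and in hippocampus 18 of 96 fell and 4 rose, with a median of -0.07. Among all genes tested 6.17% fell and 6.35% rose in cortex, and 5.97% fell and 4.97% rose in hippocampus. The genes that fell in cortex include Adcy5, Pde10a, Gng7, Ppp1r1b, Drd1, Drd2 and Adora2a, which are also in the striatum list. Among cAMP-coupled receptors 8 of 18 tested fell in cortex, with Adora2a at -1.95 ± 0.24, Gpr6 at -1.85 ± 0.25, Drd2 at -1.54 ± 0.39, Drd1 at -1.38 ± 0.20, Adrb1 at -0.99 ± 0.19 and Sstr2 at -0.68 ± 0.18, while Adora2b was at 0.86 ± 0.26, not past the threshold with DESeq2 (adjusted p = 0.1104). In hippocampus 4 of 15 fell, among them Gpr12 (-0.74 ± 0.20) and the adenosine receptor gene Adora1 (-0.68 ± 0.10). Grm3 (-0.94 in cortex and -0.69 in hippocampus) and Gabbr2 (-0.36 and -0.50), receptors that lower cAMP, fell in both tissues, Gabbr2 in cortex not past the threshold with DESeq2 (adjusted p = 0.08502).

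Of 16 other cyclase and G protein genes tested in each tissue, 6 fell in cortex and 8 in hippocampus. Gng7 (-0.77 and -0.45), Gng13 (-0.41 and -0.48) and Gnb5 (-0.37 and -0.27) fell in both, Gnb5 in hippocampus not past the threshold with DESeq2 (adjusted p = 0.08714). Gnai2, an inhibitory alpha subunit, rose in both (0.54 and 0.41). The striatal cyclase gene Adcy5 (-1.06 ± 0.14) and Rgs4 (-0.91 ± 0.11), which speeds GTP hydrolysis, fell in cortex, and Rgs14 (-0.92 ± 0.11), of the same family, in hippocampus. Of the other phosphodiesterases, the striatal Pde10a fell in cortex (-1.50 ± 0.17) and the cGMP-specific Pde5a rose in hippocampus (0.75 ± 0.23), the latter not past the threshold with DESeq2 (adjusted p = 0.1637). Among PKA inhibitors and anchoring proteins, Wasf1, an actin regulator, fell in both tissues (-0.57 and -0.94), and the anchoring protein gene Ezr rose in cortex (0.59 ± 0.17). Ppp1r1b, which encodes the PKA-regulated phosphatase inhibitor DARPP-32, fell in cortex (-1.10 ± 0.14) and was 1 of 4 in its list to do so.

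In the Epac, Rap and channel list, 2 of 13 tested fell in cortex and 3 of 16 in hippocampus. Sipa1l1, which inactivates Rap, fell in both (-0.57 and -0.51), and Rap2b in hippocampus (-0.51 ± 0.10). In the cGMP list 3 of 7 fell in cortex, among them the guanylyl cyclase subunit Gucy1a1 (-0.53 ± 0.12), and 1 of 9 in hippocampus, with Nos1ap, which binds neuronal nitric oxide synthase, falling in both (-0.84 and -0.71). Of the CREB family and its coactivators 0 of 12 passed in cortex with edgeR or DESeq2. An unadjusted p under 0.05 was found there for 1 of 12, and for 3388 of all 13058 genes tested. Of 13 in hippocampus Atf1 rose (0.80 ± 0.17) and 1 fell. In the comparison between tissues 4 of 97 tested pathway genes passed with edgeR, namely Adcy5, Pde10a, Ppp1r1b and Adora2a, with differences of 1.08, 1.36, 1.56 and 2.19. All 4 are also in the striatum list. DESeq2 gave no adjusted p for Adora2a and also called Rgs4 (0.66, adjusted p = 0.01397) and Akap9 (0.59, adjusted p = 0.009003), which are not in that list.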

How the data were processed

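The authors made prime-seq libraries, counted reads per gene with zUMIs on GRCm39 with an added GFP sequence, and deposited raw counts for each gene in each library. Submitters' processing notes also name FastQC 0.11.8, cutadapt 1.12, STAR and DESeq2 1.44. Whether molecular identifiers or reads were counted, the annotation release, and the use of intronic reads and strand are not given in the sources used here. If reads were counted, they are not independent molecules.

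Symbols matched on Ensembl number covered 43308 rows and 96.1% of counts. GFP was left out of totals and fits, and 0 count columns were unused. CPM were computed from library totals. Genes were tested on the counts with edgeR 4.0.16 (R 4.3.3, TMM, filterByExpr minimum count 10, quasi-likelihood F-test, batch as a term), adjusted by Benjamini-Hochberg over all genes tested, threshold 0.05. SE was the fold change divided by the root of F. The study names DESeq2 and gives no design for these samples. DESeq2 1.42.0 was run here as an alternative, with and without batch. Fits were tested on simulated data first. Every member was named. Members past the threshold were given by library in groups of 5 or fewer and by lowest, median and highest in larger groups, and other pathway genes where past it in both tissues, or in 1 with a log2 fold change of at least 0.5. Members, lists and tests were chosen with earlier results of these data known. The 46 replicate pairs differed beyond counting noise (chi-square per degree of freedom 2.10 to 15.1) and 0 were identical. The mice pair the tissues, since the same animals gave both. The correlation of the deviations of the 10 pairs was -0.05 to 0.09. Alternatives covered normalization, filter, tool, batch, depth and each library left out. Library kinds within batch 1 and the regional contrast in batch 2 alone were added after seeing the data. Promoters came from RefSeq (GRCm38.p6).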

Additional observations from a re-analysis of the deposited data

Results flagged for a closer look

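In 148 groups of member values, 10 values stood apart from the rest of their group, where chance gives about 1 in 20 groups. Mouse 31 was high among controls for Adcy1 in cortex (176.6 CPM, next 116.4), for Adcy2 in cortex (56.43, next 36.25) and in hippocampus (47.29, next 40.59), and for Pde9a in hippocampus (17.66, next 13.97). Mouse 11 was high among hippocampus controls for Prkar1a (459.9 CPM, next 379.5) and Akap11 (168.6, next 140.7). In GA-Camk2a mice, Gnas was high in the cortex of mouse 35 (1553 CPM, next 1288), Adcy6 low in the hippocampus of mouse 35 (2.229 CPM, from 4 counts, next 6.004), Pde9a high in the hippocampus of mouse 16 (20.91 CPM, next 17.30) and Prkar1b high in the hippocampus of mouse 34 (270.1 CPM, next 213.5). The genotype effects of Arpp19 and Arpp21 differed between the tissues (hippocampus minus cortex) by 0.653 and 0.704 on the log2 scale, by the test of the difference itself. For Arpp21 that call was lost with the mouse as a replicate block (adjusted p = 0.08184), without the batch term (0.07508) and in 8 of 21 fits that left out 1 library (up to 0.1106), and for Arpp19 with thinned counts (0.05935).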

How the results depend on the processing

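Under all alternatives, 2891 of 3005 member values kept their side of the threshold, 87 lost a call, 27 gained one and 0 called values changed sign. A change of sign with no call in either fit occurred for 137 and was not counted as a reversal. The genes past the threshold numbered 1635 in cortex, 876 in batch 1 alone and 230 in batch 2 alone, with 1038 to 1526 when 1 library was left out, fewest without control 31. The members that fell there numbered 11, 6 in batch 1 alone and 1 in batch 2 alone, and 8 to 11 with 1 library left out. In hippocampus there were 1628 genes, 958 with thinned counts, 115 in batch 1 alone, 681 in batch 2 alone and 1038 to 1831 with 1 library left out. The members that fell there numbered 5, 8 without a filter on low counts, 0 in batch 1 alone, 3 in batch 2 alone and 5 to 7 with 1 library left out. Fits in 1 batch have fewer samples, and thinning leaves fewer genes tested. For the other changes the cause was not tested.

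For the difference between tissues the genes numbered 59, 36 without a batch term, 127 with DESeq2, 159 without a filter, 19 with thinned counts and 22 to 66 with 1 library left out. Its members numbered 2, 1 without a batch term, 4 with DESeq2, 1 with thinned counts, 1 with the mouse as replicate block, 3 with library kinds and 1 to 3 with 1 library left out. Pde1b was also called by edgeR with DESeq2 size factors (adjusted p = 0.04529) and without a filter on low counts (0.03837). The replicate block gave 70 genes. The share of positive differences was 37.3% and became 49.3% with DESeq2 size factors. Between tissues in controls the genes numbered 2351, 1392 with thinned counts, 789 with library kinds, 1314 in batch 2 alone, 2002 with the replicate block and 1580 to 3168 with 1 library left out. The members higher in hippocampus numbered 4, 2 with library kinds, 2 in batch 2 alone and 2 to 6 with 1 library left out, the lower ones 10 and 8 with either of the first 2. Over all genes, 1254 were higher and 1097 lower of 14435, and 491 and 298 with library kinds. In batch 2 alone 732 were higher and 582 lower of 13073. The replicate block lost the call for Arpp21 in the difference between tissues. Adcy3 and Pde2a had too few counts for the genotype test in either tissue, and the reason for their low counts was not tested.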
